A study of Mus musculus with 12 samples.

Results

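The proteasome genes were taken as every gene of the count table whose symbol is Psma, Psmb, Psmc, Psmd, Psme, Psmf or Psmg followed by a number, which gave 48 of 56941 genes. They were 8 Psma, 11 Psmb, 6 Psmc, 14 Psmd, 4 Psme, 1 Psmf and 4 Psmg genes. RNA was sequenced from sheets of C2C12 cells, an established mouse myoblast line that fuses into multinucleated muscle fibres when serum is changed. By the protocol this was polyadenylated RNA, while low-input samples, which it does not name, were ribodepleted. The 6 ChR2 wells held the line with the genotype ChR2::tdTomato, an optogenetic line that carries channelrhodopsin-2, a light-gated cation channel, with the red fluorescent protein tdTomato. The 6 wild-type wells held the Wild-Type line. Both were seeded in a 24-well plate on a fibrin gel 1 mm thick (8 mg of fibrinogen per mL), grown for 2 days with aminocaproic acid and then differentiated for 6 days in horse serum with aminocaproic acid and IGF-1. The labels record no light stimulation, and the promoter of the transgene and the number of clones are not given in the sources used here. No source says whether each well was a culture of its own. The p-values therefore reflect how much these wells vary, and that variation may be technical.

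The proteasome is the protease complex that degrades proteins tagged with chains of ubiquitin. Its core particle is a stack of rings: alpha subunits (Psma) form the outer rings that gate entry, and beta subunits (Psmb) form the inner rings that hold the catalytic sites. A regulatory particle caps the core. Its base holds a ring of ATPases (Psmc) that unfold the substrate, and the remaining base and lid subunits (mostly Psmd) bind ubiquitin, remove it and hold the lid together. In muscle the complex breaks down myofibrillar proteins that E3 ligases such as Trim63 (MuRF1) and Fbxo32 (atrogin-1) have tagged.

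The ChR2 libraries held 7388761 to 12229458 counts and wild-type wells 1, 3, 4 and 6 held 10268067 to 13628569. Wild-type well 2 held 1061068 counts and wild-type well 5 held 2809669. The abundant non-coding 7SL RNA took 24.8% of the counts in wild-type well 2 and 8.37% in wild-type well 5, while no other library exceeded 0.0341%, so the main results are also given without these wells (10 libraries). The protocol says that low-input samples were ribodepleted, without naming them. Of 10 muscle markers (Myog, Myod1, Des, Acta1, Ckm, Myh3, Myh8, Tnnt3, Mymk and Ttn), 10 passed the filter on low counts. So did 7 of 8 fibroblast markers, so passing the filter does not by itself single out muscle. The muscle markers summed to 11064 to 12890 CPM (counts scaled to the TMM-adjusted size of each library) in the ChR2 wells. In the wild-type wells they summed to 9492 to 25610 CPM, and to at most 16421 CPM without wells 2 and 5.

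Most proteasome genes were lower in the ChR2 line. Of the 44 members that passed the filter on low counts, 27 fell and 0 rose in edgeR's quasi-likelihood test at an adjusted p under 0.05, with Benjamini-Hochberg adjustment over all 13168 genes tested. Over all genes tested, 28.1% were called, 14.1% lower and 14.0% higher in the ChR2 line. The log2 fold change was negative for 41 of the 44 members, against 51.8% of all genes tested. Their median log2 fold change was -0.51, against -0.02 over all genes, and single members ran from -1.13 (Psmd11) to 0.30 (Psmg4). At an unadjusted p under 0.05, 31 members were lower and 0 higher, and DESeq2's Wald test and limma voom also called 0 members higher. Without wild-type wells 2 and 5, 31 of the 44 members fell and 0 rose, 42 were negative, and their median was -0.47. In those 10 libraries 35.2% of all genes tested were called, 16.3% lower and 18.9% higher, and 50.1% were negative. Of the tested members, 42 were above 10 CPM in every well; the exceptions were Psmb10 and Psmg2. The fits with 12 and 10 libraries shared 24 members called in the same direction. Estimated counts were not whole in 11 or 12 libraries for Psma3, Psma4, Psma5, Psmb3, Psmb5, Psmd2, Psmd11 and Psme2, which shows reads split with other transcripts, so the values of these 8 members are less certain. In a bulk sample, fewer cells of a type and less RNA per cell cannot be told apart.

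The count of lower members was 17 or more in every fit on counts and 0 in the fits on TPM over 12 libraries. TPM scales counts by transcript length and by the sum over all transcripts. With limma on log2(TPM + 1) over the 12 libraries, 0 members were called lower, and the median log2 difference was -0.05 over the members and 0.35 over all genes. That fit called 620 genes, 95.5% of them higher in the ChR2 line, where edgeR's calls were 49.7% higher. With wild-type wells 2 and 5 left out, the same log2(TPM + 1) fit called 37 of 44 members lower and 0 higher, with medians of -0.55 over the members and -0.08 over all genes. Leaving out 1 library at a time in edgeR gave 19 to 28 members lower.

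**Figure D1:**
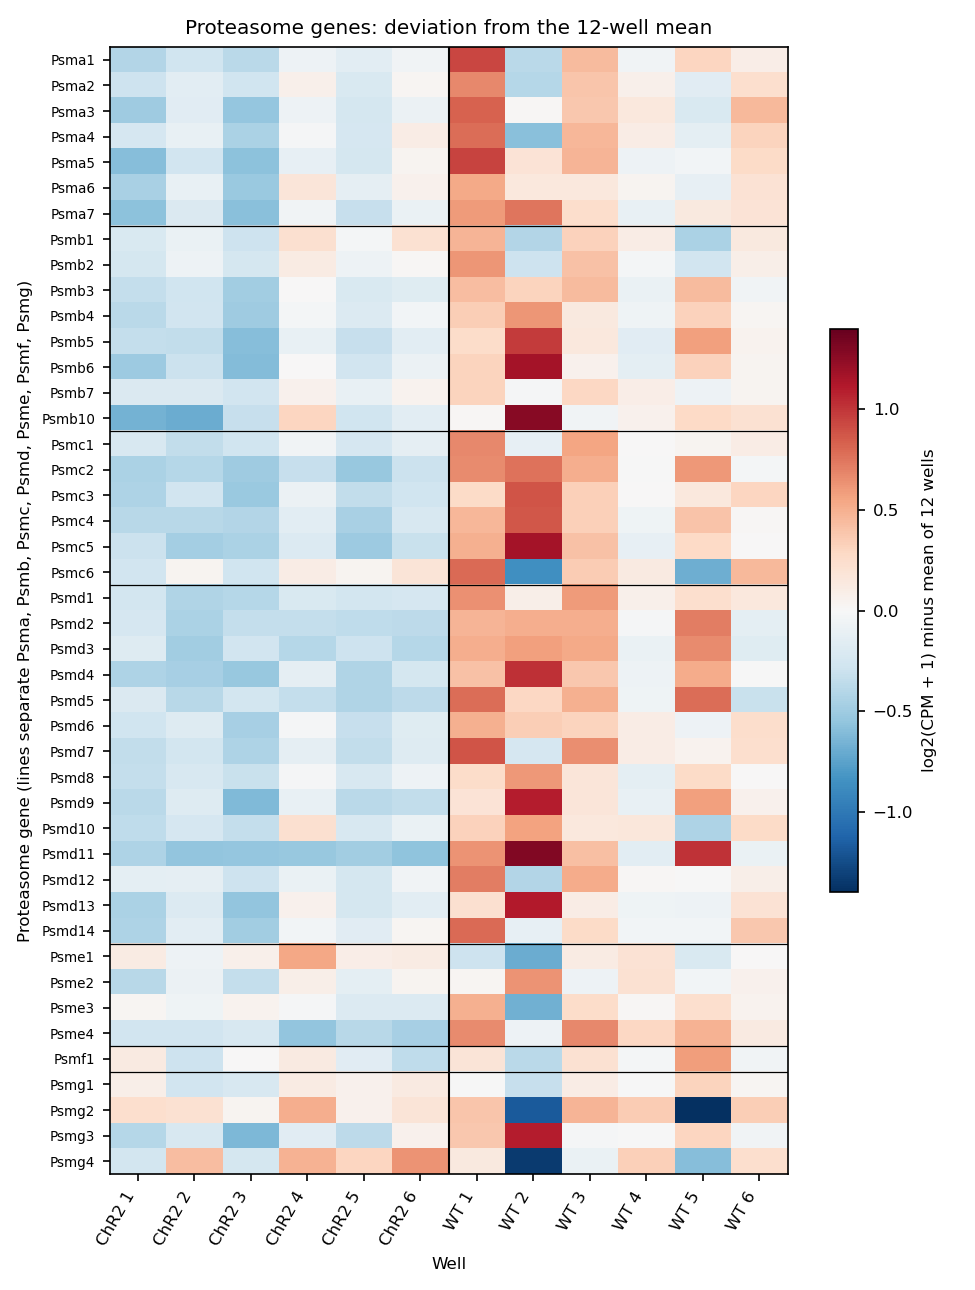
Level of the 44 tested proteasome genes (rows, in order of gene family) in each well (columns), as log2(CPM + 1) minus the gene's mean over the 12 wells, with red above and blue below that mean. The median over genes lay between -0.38 and -0.03 in the 6 ChR2 wells and between -0.004 and 0.49 in the 6 wild-type wells, and wild-type wells 2 and 5 hold both the reddest and the bluest cells.

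The wells of each line were not alike. The median deviation of the 44 members from their 12-well mean was 0.49 in wild-type well 1 and 0.33 in wild-type well 3, and -0.004 and 0.08 in wild-type wells 4 and 6. In the ChR2 line it was lowest in well 3, at -0.38, and highest in wells 4 and 6, at -0.03 and -0.09. The highest ChR2 wells and the lowest wild-type wells therefore lay close to each other. Members took 0.526% to 0.624% of the counts in the ChR2 wells and 0.622% to 1.06% in the wild-type wells. The lowest wild-type share was that of well 2, where 7SL RNA took 24.8% of the counts. On TMM-scaled CPM the members summed to 4967 to 6332 in the ChR2 wells and 6678 to 9800 in the wild-type wells, without overlap. In wild-type wells 2 and 5 the members diverged from each other: the SD of their deviations was 0.69 and 0.46, against 0.13 to 0.27 in the other 10 wells. Psmg2, Psmg4 and Psmc6 were low in both wells while Psmd11 was high in both. The share of 7SL RNA and the depth move with this divergence, and their part in it was not tested.

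Among the core alpha subunits, 4 of the 7 tested genes fell and 0 rose, with a median log2 fold change of -0.52. In the 10 libraries, 6 of 7 fell, with a median of -0.57. Psma7 ran from 189 to 275 CPM in the ChR2 wells (median 237) and from 265 to 480 CPM in the wild-type wells (median 332). The lines overlapped only through ChR2 wells 4 and 6, at 275 and 267 CPM, which lay above wild-type well 4, at 265 CPM. Psma7 fell by 0.62 on the log2 scale (SE 0.16, adjusted p = 0.00946, edgeR). Psma5 ran from 167 to 259 CPM (median 211) in the ChR2 line and from 242 to 487 CPM (median 297) in the wild type. Its log2 fold change was -0.62 (SE 0.18, adjusted p = 0.0178, edgeR). Psma3 was the most abundant alpha transcript per length, at 477 TPM in the ChR2 line. It ran from 231 to 320 CPM in the ChR2 wells (median 292) and from 290 to 596 CPM in the wild-type wells (median 403), with only wild-type well 5 inside the ChR2 range. Its log2 fold change was -0.57 (adjusted p = 0.0205, edgeR), and -0.71 without wild-type wells 2 and 5, where all 6 ChR2 wells lay below all 4 wild-type wells. Psma1 also fell, by 0.52 on the log2 scale (adjusted p = 0.0406, edgeR), from 123 ± 40.4 to 86.6 ± 9.30 CPM (SD, n = 6 in each line). Leaving out any of 8 single libraries, all 6 ChR2 wells among them, took the call from Psma1, to an adjusted p of up to 0.0936 and a log2 fold change as small as -0.34, without wild-type well 1. Psma2, Psma4 and Psma6 did not pass the test, with log2 fold changes of -0.32, -0.39 and -0.32, and Psma2 and Psma4 did without wild-type wells 2 and 5, at -0.48 and -0.57.

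The remaining alpha gene, Psma8, encodes the testis form of a core alpha subunit. It had 0 counts in all 12 libraries, which allows up to 3 counts in each.

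Among the core beta subunits, 4 of the 8 tested genes fell and 0 rose, with a median log2 fold change of -0.49. In the 10 libraries, 5 of 8 fell, with a median of -0.35. Psmb5 and Psmb6 carry the chymotrypsin-like and caspase-like active sites of the constitutive core. Psmb5 ran from 49.4 to 69.8 CPM in the ChR2 wells (median 59.6) and from 67.4 to 149 CPM in the wild-type wells (median 86.9). Wild-type wells 2 and 5 were the highest, at 149 and 113 CPM. Psmb5 fell by 0.64 on the log2 scale (SE 0.17, adjusted p = 0.0124, edgeR), and by 0.37 without those wells (adjusted p = 0.0162). Psmb6 was the most abundant beta transcript per length, at 351 TPM in the ChR2 line. It ran from 133 to 203 CPM there (median 166) and from 184 to 455 CPM in the wild type (median 231), with wild-type well 2 at the top. Psmb6 fell by 0.63 on the log2 scale (adjusted p = 0.0285, edgeR), and missed the threshold in the 10 libraries, at -0.34 (adjusted p = 0.0504). Psmb3 and Psmb4, structural beta subunits, fell by 0.51 and 0.47, with adjusted p = 0.0102 and 0.0176 in edgeR. Psmb7, the trypsin-like site, did not pass, at -0.23 (adjusted p = 0.135, edgeR), nor did Psmb2, at -0.23 (adjusted p = 0.286). Both passed in the 10 libraries, at -0.28 and -0.36. The smallest difference among beta genes was that of Psmb1, at 233 ± 35.1 CPM in the ChR2 line and 248 ± 62.4 CPM in the wild type (SD, n = 6 in each line). Its log2 fold change was -0.10 (SE 0.17, adjusted p = 0.71, edgeR). Wild-type wells 2 and 5 were the lowest of their line in Psmb1, at 177 and 173 CPM. Without them its log2 fold change was -0.27 (adjusted p = 0.1, edgeR).

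The inducible beta subunits Psmb8, Psmb9 and Psmb10 replace Psmb5, Psmb6 and Psmb7 in the immunoproteasome, a form that interferon brings out and that favours peptides for antigen presentation. Psmb8 had 0 to 5 counts per library and Psmb9 had 0 to 6, too few to be tested. The inducible share of each pair was computed per well from TPM and compared with a two-sided exact permutation test, whose smallest possible p with 6 wells against 6 is 0.00216. Psmb8 made up 0.193% ± 0.296 of the Psmb8 and Psmb5 sum in the ChR2 wells and 0.246% ± 0.247 in the wild-type wells (SD, n = 6 in each line, exact permutation p = 0.751, adjusted over the 3 pairs 0.751). Psmb9 made up 0.286% ± 0.330 of its pair with Psmb6 in the ChR2 wells and 0.0383% ± 0.0370 in the wild type (exact permutation p = 0.0519, adjusted 0.156). These shares rest on 15 Psmb9 counts in all ChR2 libraries together and 11 in all wild-type libraries, and no difference was detected. The TPM of Psmb9 did not follow its counts: 6 counts gave 3.35 TPM in ChR2 well 4, and 5 counts gave 0.387 TPM in wild-type well 6. The gap between the mean shares is therefore not a gap in counts. Psmb10 was measurable, at 4.96 to 10.9 CPM in the ChR2 wells and 8.29 to 22.3 CPM in the wild-type wells. It made up 7.81% ± 1.72 and 10.7% ± 5.37 of its pair with Psmb7 (exact permutation p = 0.210, adjusted 0.315), and the highest wild-type share, 21.4%, was that of well 2. Psmb11, the thymus form of the Psmb5 subunit, had 1 count, in ChR2 well 4.

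**Figure D2:**
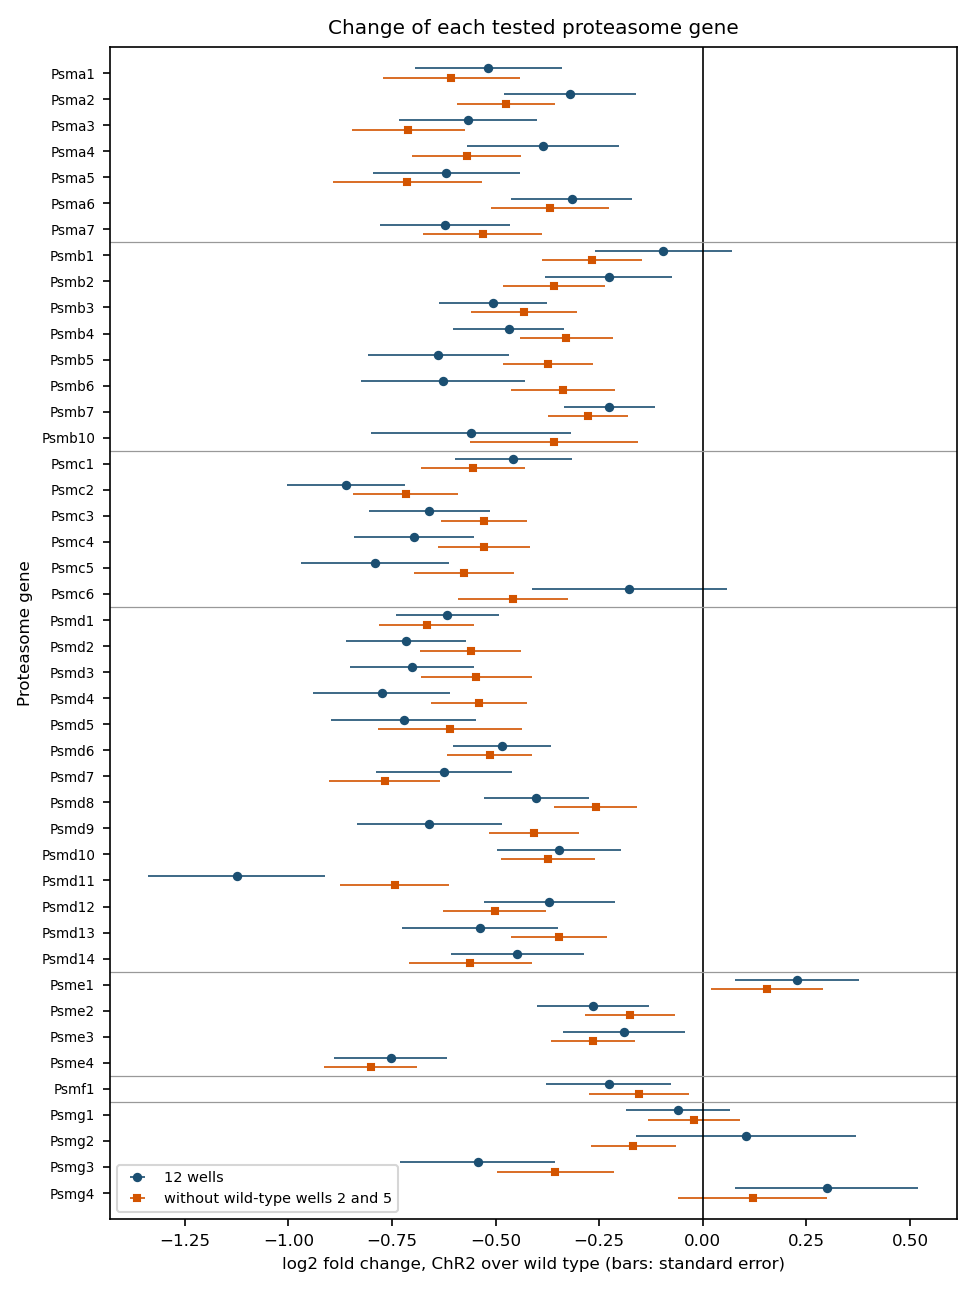
Log2 fold change of each of the 44 tested proteasome genes, ChR2 over wild type, from edgeR with its standard error, over 12 libraries (circles) and without wild-type wells 2 and 5 (squares), with lines between gene families. Points lie left of 0 for 41 genes over 12 libraries and for 42 genes without those wells; Psmd11 is farthest left at -1.13 and moves to -0.74.

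The base and lid group held the largest count of lower genes: 17 of 20 fell and 0 rose. Over all genes tested, 14.1% were called lower and 14.0% higher. The group had a median log2 fold change of -0.64. It takes in all Psmc and Psmd genes, and so also the assembly chaperones Psmd5, Psmd9 and Psmd10. In 10 of the 20, all 6 ChR2 wells lay below all 6 wild-type wells, a pattern that 6.52% of all genes tested showed. In 0 members did all ChR2 wells lie above all wild-type wells, as 8.57% of genes did. Without wild-type wells 2 and 5, 19 of 20 fell, against 16.3% of all genes tested, with a median of -0.54. Of the 20, 14 were then separated in this way, against 11.2% of all genes, while 0 members and 13.7% of genes were separated the other way.

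Of the 6 ATPases, 5 fell and 4 were separated, against 14.1% and 6.52% of all genes tested. Psmc2 ran from 102 to 120 CPM in the ChR2 wells (median 111) and from 146 to 252 CPM in the wild-type wells (median 219). The highest ChR2 well lay below wild-type wells 4 and 6, the lowest of their line at 149 and 146 CPM. Psmc2 fell by 0.86 on the log2 scale (SE 0.14, adjusted p = 0.000762, edgeR), and by 0.72 without wild-type wells 2 and 5. Psmc5 ran from 100.1 to 125 CPM (median 110) against 132 to 321 CPM (median 182) and fell by 0.79 (SE 0.18, adjusted p = 0.00505, edgeR). Psmc4 and Psmc3 were separated as well, and fell by 0.70 and 0.66. Psmc3 was the most abundant ATPase transcript per length, at 309 TPM in the ChR2 line, and Psmc2 the least, at 88.4 TPM. Psmc1 fell by 0.46 (adjusted p = 0.0265, edgeR) and lost the call when any of 6 single libraries was left out, at an adjusted p of up to 0.0685. Psmc6 was the exception among the ATPases. It ran from 274 to 377 CPM in the ChR2 wells (median 342) and from 183 to 578 CPM in the wild-type wells (median 395), where wells 2 and 5 were the lowest of all 12, at 183 and 207 CPM. Its log2 fold change was -0.18 (SE 0.24, adjusted p = 0.612, edgeR), and -0.46 without those wells (adjusted p = 0.0164).

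Of the 14 Psmd genes, 12 fell and 6 were separated, against 14.1% and 6.52% of all genes tested. Psmd11, a lid subunit that bridges the lid and the core, had the most negative log2 fold change of all 44 members over the 12 libraries. Its level was 113, 104, 105, 106, 109 and 103 CPM in ChR2 wells 1 to 6 and 237, 379, 206, 138, 310 and 143 CPM in wild-type wells 1 to 6. The ChR2 wells lay within 10 CPM of each other and all below the wild type, whose highest values were those of wells 2 and 5. Psmd11 fell by 1.13 on the log2 scale (SE 0.21, adjusted p = 0.00169, edgeR), and by 0.74 without those wells (SE 0.13, adjusted p = 0.000863). Psmd2 and Psmd1 are the large base subunits on which ubiquitin shuttles and other partners dock. Psmd2 ran from 245 to 284 CPM in the ChR2 line (median 262) and from 303 to 549 CPM in the wild type (median 468), and fell by 0.72 (SE 0.14, adjusted p = 0.00254, edgeR). Psmd1 ran from 181 to 208 CPM against 255 to 377 CPM and fell by 0.62 (adjusted p = 0.00263, edgeR). Both genes were separated between the lines.

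Psmd4, a ubiquitin receptor, ran from 121 to 160 CPM in the ChR2 wells and from 166 to 355 CPM in the wild-type wells, and fell by 0.78 (adjusted p = 0.00367, edgeR). The lid subunit Psmd3 fell by 0.70 (adjusted p = 0.00369), again with no overlap. The lid subunits Psmd7, Psmd6, Psmd13 and Psmd8 fell by 0.62, 0.48, 0.54 and 0.40. In the 10 libraries Psmd8 was the base and lid gene that missed the threshold, at -0.26 (adjusted p = 0.0568, edgeR). Psmd13 was at -0.31 with wild-type well 2 alone left out (adjusted p = 0.0632), and at -0.35 in the 10 libraries (adjusted p = 0.0309). Psmd14, the deubiquitinase that removes ubiquitin chains from the substrate, fell by 0.45 with an adjusted p of 0.0486 (edgeR). Psmd13, Psmd14 and Psmd8 lost the call when any of 8, 9 and 5 single libraries was left out, at an adjusted p of up to 0.0956, 0.1125 and 0.0668. Psmd12, a lid subunit, did not pass the test, at -0.37 (adjusted p = 0.0928, edgeR), and passed without wild-type wells 2 and 5, at -0.50. Psmd5, Psmd9 and Psmd10 are chaperones of base assembly and not subunits of the finished particle. Psmd5 fell by 0.72 and Psmd9 by 0.66, while Psmd10 was at -0.35 (adjusted p = 0.0963, edgeR). Psmd9 was at -0.41 in the 10 libraries, where Psmd10 passed, at -0.37 (adjusted p = 0.0197). Psmd8 and Psmd14 were the most abundant Psmd transcripts per length in the ChR2 line, at 171 and 160 TPM, and Psmd9 the least, at 24.5 TPM.

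**Figure D3:**
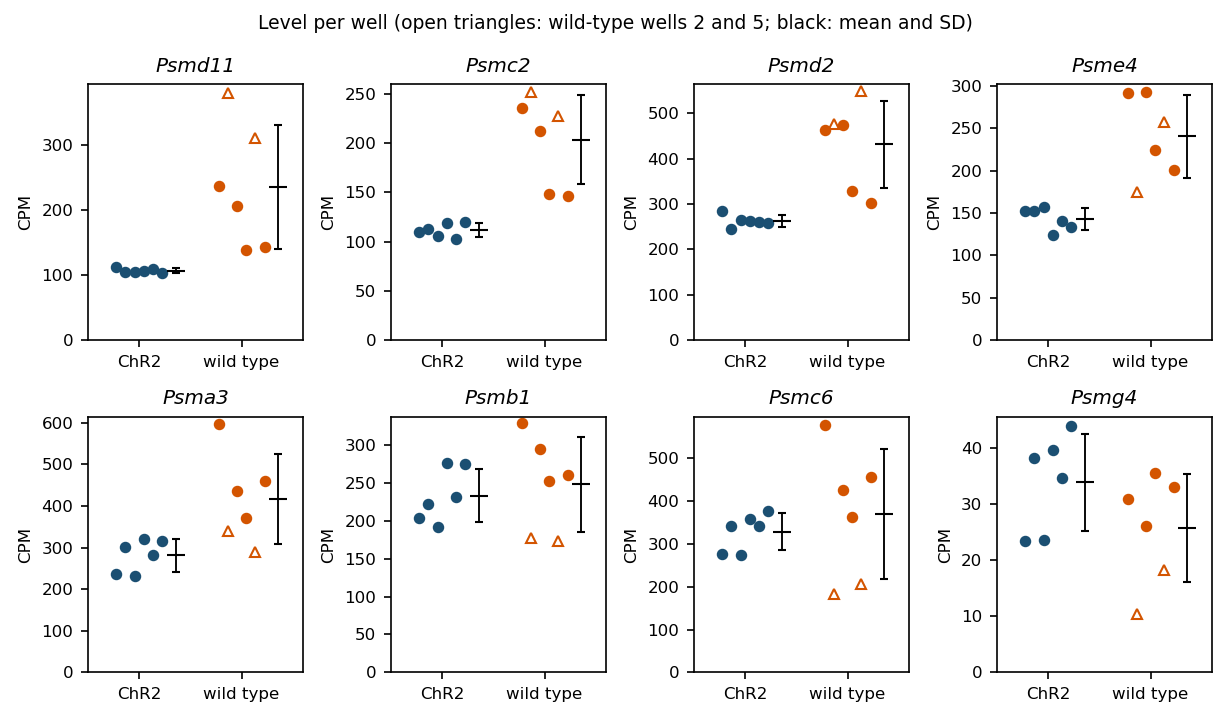
Level per well (CPM, linear axes from 0) of 8 proteasome genes in the 6 ChR2 wells (blue) and the 6 wild-type wells (orange; open triangles are wells 2 and 5), with the mean and SD of each line in black. The ChR2 wells of Psmd11 (103 to 113 CPM), Psmc2, Psmd2 and Psme4 all lie below the wild-type wells. In Psma3, Psmb1, Psmc6 and Psmg4 the lines overlap, and the triangles are the lowest wild-type points of each of these genes.

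Of the 9 activators, inhibitor and assembly factors (Psme, Psmf and Psmg), 2 fell and 0 rose, and the median was -0.19 on the log2 scale. Over all genes tested, 14.1% were called lower. In the 10 libraries 1 of the 9 fell, against 16.3% of all genes tested. Whether the share of these 9 differs from that of all genes or of the base and lid was not tested. The activator Psme4 (PA200), a large single-chain cap of the core, ran from 124 to 157 CPM in the ChR2 wells (median 146) and from 174 to 293 CPM in the wild-type wells (median 241). No ChR2 well reached the lowest wild-type well, which was well 2. Psme4 fell by 0.75 on the log2 scale (SE 0.14, adjusted p = 0.00124, edgeR), and by 0.80 without wild-type wells 2 and 5 (adjusted p = 0.000171), the most negative value of any member in that fit. The other activators belong to the ring-shaped PA28 family. Psme1 stood at 24.4 ± 3.96 CPM in the ChR2 line and 20.0 ± 4.46 CPM in the wild type (SD, n = 6 in each line), with a log2 fold change of 0.23 (SE 0.15, adjusted p = 0.271, edgeR). Psme2, its partner and the most abundant activator per length at 107 TPM in the ChR2 line, had -0.26 (adjusted p = 0.156), and the nuclear Psme3, next at 54.3 TPM, had -0.19 (adjusted p = 0.358). The inhibitor Psmf1 had -0.23 (adjusted p = 0.274).

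The Psmg genes encode chaperones that assemble the alpha ring. Psmg3 fell by 0.54 (adjusted p = 0.0411, edgeR), from 26.1 ± 9.52 to 16.7 ± 2.91 CPM (SD, n = 6 in each line). It lost the call when any of 8 single libraries was left out, and was not called in the 10 libraries, at -0.36 (adjusted p = 0.0637). Psmg1 had a log2 fold change of -0.06 (SE 0.13). Psmg2 and Psmg4, the most abundant Psmg genes per length in the ChR2 line at 43.0 and 125 TPM, were low in wild-type wells 2 and 5. Psmg2 was at 10.5 and 7.49 CPM there and at 32.0 to 35.0 CPM in the other wild-type wells, against 25.7 to 35.9 CPM in the ChR2 wells. Its log2 fold change was 0.11 with those wells and -0.17 without them, with an adjusted p of 0.805 and 0.216 (edgeR). Psmg4 ran from 23.3 to 43.9 CPM in the ChR2 line and from 10.5 to 35.5 CPM in the wild type. Its log2 fold change was 0.30 (SE 0.22, adjusted p = 0.334, edgeR), and 0.12 without wild-type wells 2 and 5 (adjusted p = 0.636).

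The make-up of the proteasome transcript pool was described from TPM, which allows genes of different length to be compared. In the ChR2 line the 14 constitutive core subunits spanned 101 (Psma2) to 477 TPM (Psma3), a ratio of 4.74 between transcripts whose proteins sit in the core in equal number. Alpha subunits made up 29.6% ± 1.41 of summed proteasome TPM in the ChR2 wells, 31.8% ± 1.92 in wild-type wells 1, 3, 4 and 6, and 30.2% ± 3.04 in all 6 wild-type wells (SD). Beta subunits made up 23.6% ± 0.532 in the ChR2 wells and 21.7% ± 0.741 in the same 4 wild-type wells, with every ChR2 well, the lowest at 22.8%, above these 4, the highest at 22.4%. Wild-type wells 2 and 5, at 24.1% each, lay inside the ChR2 range of 22.8% to 24.1%. Assembly factors of the Psmg family made up 3.61% ± 0.283 in the ChR2 wells, 2.71% ± 0.486 in the 4 wild-type wells and 2.37% ± 0.665 in all 6. These shares were not tested. Shares of a whole move against each other, so a higher share is not a higher level.

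**Figure D4:**
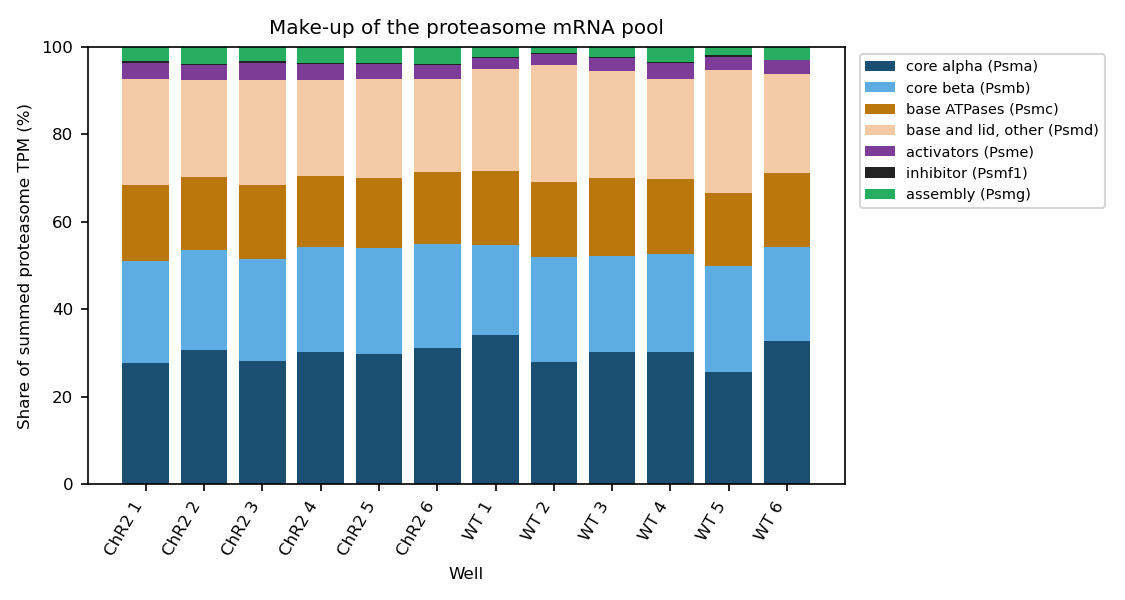
Share of summed proteasome TPM (percent, stacked to 100) that each gene family made up in each well. The alpha segment is the largest in every well but wild-type well 5, where the Psmd segment is; the assembly segment at the top is 3.23% to 3.95% in the ChR2 wells and 1.48% to 3.33% in the wild-type wells.

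The promoters of the separated members Psmd11, Psmc2 and Psme4, the most negative of the lid, the ATPases and the activators, are shown because proteasome genes are known as targets of Nfe2l1 and Nfe2l2, which bind antioxidant response elements, and of NF-Y, which binds CCAAT boxes. Each window runs from 250 bases before to 50 bases after the start in RefSeq (GRCm38.p6, plus strand), and RefSeq gives a pair of starts for Psmc2. Capitals mark matches on either strand to TGACNNNGC (the core of the antioxidant response element), TGACTCAGC (its full form), CCAAT and CCGGAAG (an ETS-type motif).
Psmd11 chr11:80428365-80428664: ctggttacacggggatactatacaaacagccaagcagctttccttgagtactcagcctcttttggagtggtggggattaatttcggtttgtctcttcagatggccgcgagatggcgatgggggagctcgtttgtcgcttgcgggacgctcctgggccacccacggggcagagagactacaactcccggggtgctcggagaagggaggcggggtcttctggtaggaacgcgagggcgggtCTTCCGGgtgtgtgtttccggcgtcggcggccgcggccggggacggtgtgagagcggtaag
Psmc2 chr5:21785025-21785324: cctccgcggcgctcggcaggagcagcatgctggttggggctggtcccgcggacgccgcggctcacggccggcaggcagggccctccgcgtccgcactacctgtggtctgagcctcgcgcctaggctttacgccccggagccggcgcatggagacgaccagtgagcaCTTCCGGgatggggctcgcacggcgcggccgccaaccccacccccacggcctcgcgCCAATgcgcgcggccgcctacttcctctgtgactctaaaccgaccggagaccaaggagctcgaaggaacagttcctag
Psmc2 chr5:21786497-21786796: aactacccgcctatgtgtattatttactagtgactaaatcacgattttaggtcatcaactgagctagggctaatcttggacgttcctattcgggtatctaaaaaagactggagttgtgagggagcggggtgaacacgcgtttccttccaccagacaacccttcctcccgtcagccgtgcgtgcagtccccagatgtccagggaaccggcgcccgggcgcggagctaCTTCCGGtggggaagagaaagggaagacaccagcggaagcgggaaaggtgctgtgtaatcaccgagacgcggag
Psme4 chr11:30771525-30771824: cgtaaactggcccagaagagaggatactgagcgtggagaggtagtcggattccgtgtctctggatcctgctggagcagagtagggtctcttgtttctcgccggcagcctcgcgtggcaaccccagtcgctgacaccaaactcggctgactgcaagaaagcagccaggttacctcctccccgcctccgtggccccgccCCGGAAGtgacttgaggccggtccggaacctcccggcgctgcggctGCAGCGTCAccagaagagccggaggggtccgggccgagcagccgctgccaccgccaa
Each window held the ETS-type motif, in Psmd11 and Psmc2 as its reverse complement CTTCCGG. The antioxidant core was met in the Psme4 window alone of these 4, and CCAAT in the first Psmc2 window alone.

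Windows were found for 40 of the 48 members and 27025 genes. CCGGAAG occurred in 14 of the 40 members (35.0%) and in 9.93% of all genes. TGACNNNGC occurred in 6 members (15.0%: Psmb5, Psmb6, Psmc6, Psmd12, Psmd9 and Psme4) and in 14.0% of all genes, and TGACTCAGC in 0 members and 0.503% of genes. CCAAT occurred in 14 members (35.0%) and 41.1% of genes. A core of the interferon-stimulated response element, 2 GAAA boxes with 2 bases of any kind between them, occurred in 5 members (12.5%: Psmb3, Psmd4, Psmd9, Psme1 and Psmg4) and 3.99% of genes. These matches describe the letters of the windows and are not evidence of binding.

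Genes that work with the proteasome were read from lists drawn up with earlier results of these data known. For comparison with the counts of each list, 14.1% of all genes tested were called lower and 14.0% higher. In the 10 libraries these shares were 16.3% and 18.9%. Of 16 partner proteins tested, 5 fell and 0 rose, with a median log2 fold change of -0.22. Adrm1, the ubiquitin receptor of the base beside Psmd4, ran from 68.4 to 77.3 CPM in the ChR2 wells (median 73.9) and from 89.5 to 270 CPM in the wild-type wells (median 159). The lines did not overlap, and Adrm1 fell by 1.22 on the log2 scale (SE 0.24, adjusted p = 0.00211, edgeR), and by 0.77 without wild-type wells 2 and 5. The shuttle factor Ubqln4 fell by 0.52 (adjusted p = 0.00478). Pomp, the chaperone of core maturation, had -0.09 (adjusted p = 0.684) and the small lid subunit Sem1 had 0.20 (adjusted p = 0.524).

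Of 17 genes tied to the transcription of proteasome genes, 5 fell and 2 rose, with a median of -0.07. The 2 that rose are near the 14.0% of all genes tested called higher. In the 10 libraries 3 fell and 3 rose, near the 16.3% and 18.9% of all genes tested. Nfe2l1, the factor that raises proteasome genes when proteasome activity is short, was at 587 to 753 CPM in the ChR2 wells and 466 to 1016 CPM in the wild type, with a log2 fold change of -0.08 (SE 0.17, adjusted p = 0.746, edgeR). Nfe2l2 (NRF2) had 0.09 (SE 0.20, adjusted p = 0.786). Ddi2, the protease that releases active Nfe2l1, fell by 0.59 (adjusted p = 0.00503), and Bach1, a repressor at antioxidant response elements, fell by 0.98 (adjusted p = 0.00428), and by 0.61 in the 10 libraries. Foxm1, a factor of dividing cells, rose from 16.6 ± 10.5 to 55.9 ± 7.80 CPM (SD, n = 6 in each line), which is 1.65 on the log2 scale (adjusted p = 0.000772), and the NF-Y subunit Nfyb rose by 0.68.

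Of 12 genes of the ubiquitin and p97 list, p97 being the ATPase that extracts tagged proteins, 4 fell and 0 rose, with a median of -0.18. The p97 cofactors Nploc4 and Ufd1 fell by 1.03 and 0.57 (adjusted p = 0.00212 and 0.00336, edgeR). Ubb, a ubiquitin gene, did not pass the test, at -0.07. Of 22 ubiquitin ligases of muscle, 8 fell and 0 rose, with a median of -0.14. Fbxo32 fell by 0.74 (SE 0.12, adjusted p = 0.000764, edgeR), from 60.6 ± 8.46 to 36.3 ± 4.38 CPM, and Trim63 by 1.02 (SE 0.17, adjusted p = 0.000919), from 92.1 ± 33.4 to 44.1 ± 2.60 CPM (SD, n = 6 in each line).

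Of 15 antioxidant response genes, 9 fell and 0 rose, with a median of -0.84. Nqo1, a quinone reductase controlled by Nfe2l2, fell by 3.29 on the log2 scale (adjusted p = 0.000919, edgeR), and Hmox1, heme oxygenase, by 2.37. Nqo1 was at 5.90 to 8.55 CPM in the ChR2 wells and at 159, 59.0, 101, 20.2, 81.7 and 12.3 CPM in wild-type wells 1 to 6. Wild-type wells 4 and 6, lowest in Nqo1, also had the lowest median proteasome deviations of their line, and wells 1 and 3 the highest of both. The part of this variation in the proteasome result was not tested. Of 15 antigen processing genes, 0 fell and 2 rose, B2m and H2-D1, by 0.87 and 0.60. Of 16 autophagy genes, 4 fell and 2 rose: Sqstm1 and Map1lc3a fell by 1.30 and 0.71, while Bnip3 and Bnip3l rose by 0.83 and 0.58. The 2 of 15 antigen processing genes and 2 of 16 autophagy genes that rose are near the 14.0% of all genes tested called higher. With wild-type wells 2 and 5 left out, 7 partner genes fell and 0 rose, 9 muscle ligases fell and 1 rose, 8 antioxidant genes fell and 0 rose, 0 antigen processing genes fell and 3 rose, and 5 autophagy genes fell and 2 rose.

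Markers of other cell types moved with the lines in part. Among 10 muscle markers, 3 fell (Myog, Des and Ttn) and 0 rose, against 14.1% of all genes tested called lower and 14.0% higher. In the 10 libraries 4 fell (Myog, Ttn, Mymk and Myh8), against 16.3% of all genes tested. There Des was not called (-0.29, adjusted p = 0.112, edgeR) and Ttn was at -0.79, against -2.0045 in all 12. Among 8 fibroblast markers, 7 were tested, 4 of them rose (Dpt, Mfap5, Col3a1 and Col1a2) and 0 fell. In the 10 libraries 4 rose and 0 fell, against 18.9% of all genes tested called higher. The fibroblast markers summed to 3838 to 4603 CPM in the ChR2 wells and 989 to 4272 CPM in the wild type. Without wells 2 and 5 the highest wild-type sum was 3705 CPM, below every ChR2 well. Of 10 immune cell markers 1 was tested, Cd68, which did not pass, and Tyrobp was at 0 in every library; their sums were 3.52 to 6.73 CPM and 3.93 to 9.81 CPM. None of the 5 endothelial markers reached the filter, with Tie1 at 0 in every library. Of 5 neuron markers Map2 was tested and rose, while Rbfox3 and Snap25 were at 0. The part of the muscle and fibroblast genes in the proteasome result was not tested.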

How the data were processed

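RNA of 12 wells was sequenced as 50-base pairs after 14 PCR cycles, per the labels' protocols. The authors deposited estimated counts and TPM per gene for 56941 genes. The submitters' processing notes name Salmon, STAR, bedtools 2.25.0 and BWA 0.7.12-r1039, and as builds GRCm39, mm10 and hg19, giving no role to any. Groups came from the genotype label. The deposited estimated counts were rounded to whole numbers, filtered with filterByExpr (minimum count 10), scaled by TMM and tested with edgeR 4.0.16 (quasi-likelihood, robust; R 4.3.3) on all genes, with Benjamini-Hochberg adjustment. CPM are TMM-scaled, and the SE is the size of the log2 fold change over the root of F. Alternatives used DESeq2 1.42.0, limma 3.58.1 with voom, and log2(TPM + 1) or log2(TPM + 0.1). Fold changes from the latter understate the change of low genes. Totals of 1061068 to 13628569 counts set a floor of 3 counts, or 0.220 to 3.93 CPM; this covers counting error only. Scripts were tested on simulated data with 200 changed genes. Within each line, no well duplicated another (chi-square per degree of freedom at least 5.09). Wells of different lines were not compared in this way. The members, lists and motifs were chosen with earlier results of these data known. Named are all members called, the 2 most abundant of each family, and from each other list up to 2 called genes per direction by smallest p, plus Nfe2l1, Nfe2l2, Pomp, Adrm1, Sem1, Ubb, Trim63 and Fbxo32; 1 gene of these lists is not reported here. Paaf1 of the partner list had no row under that symbol.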

Additional observations from a re-analysis of the deposited data

Results flagged for a closer look

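In 9 of the 88 combinations of a line and a tested member, 1 well stood apart from the other 5 of its line by more than Dixon's 95% limit for 6 values (0.625); chance gives about 1 in 20. Wild-type well 2 accounted for 7 of them, all high. Psmb6 was at 455 CPM there and at 184 to 255 CPM in the other wild-type wells. Psmc3 was at 699 CPM against 381 to 478 CPM, and Psmc5 at 321 CPM against 132 to 202 CPM. Psmd13 was at 339 CPM against 150 to 184 CPM, Psme2 at 105 CPM against 64.2 to 78.4 CPM, Psmg3 at 44.6 CPM against 19.7 to 26.6 CPM and Psmb10 at 22.3 CPM against 8.29 to 10.7 CPM. ChR2 well 4 gave the other 2: Psme1 was at 32.1 CPM against 20.7 to 23.7 CPM, and Psmg2 at 35.9 CPM against 25.7 to 29.5 CPM.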

How the results depend on the processing

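The count of members called higher was 0 under every alternative run. Against 27 members called lower, DESeq2 size factors gave 25, upper-quartile scaling 22, DESeq2's Wald test 27, voom with quality weights 34, no filter 22, and wells left out one at a time 19 to 28. A minimum of 1 CPM in 6 libraries kept exactly the genes of the main filter. Of the 27, 17 kept the call under all 21 count-based alternatives and 19 with every single library left out. Psma1, Psma3, Psmb6, Psmc1, Psmd8, Psmd13, Psmd14 and Psmg3 did not. The replicate block gave 17 members lower and 2641 genes called against 3701. Same-numbered wells showed no sign of deviating together (r -0.14 to 0.10, and only number 6 matched its own number best). These correlations kept the low-depth wild-type wells, whose members diverged most, so they cannot exclude that same-numbered wells shared a plating or batch. Whether the numbers pair the wells is therefore not known. Leaving out 1 library gave 2822 to 4115 genes called.

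On TPM with 12 libraries, 0 members were called lower by log2(TPM + 1), log2(TPM + 0.1) and unfiltered log2(TPM + 1). These fits called 620, 271 and 425 genes, and their median over all genes was 0.35, 0.43 and 0.08. The cause was not tested; without wild-type wells 2 and 5, an alternative chosen after seeing the data, log2(TPM + 1) called 37 lower. DESeq2 size factors without those wells, also added later, gave 36. With or without the filter, log2(TPM + 1) turned these log2 differences positive, none of them called: Psmb1 0.39, Psma2 0.19, Psmd12 0.11, Psma6 0.0038, Psmc1 0.051, Psmc6 0.24, Psmg1 0.42, Psmb7 0.23, Psmd14 0.10, Psmb2 0.27, Psmd8 0.054, Psmd10 0.094, Psma4 0.11, Psmf1 0.26, Psme3 0.26 and Psme2 0.23. With log2(TPM + 0.1) the same genes, in that order, were at 0.40, 0.20, 0.12, 0.0043, 0.055, 0.24, 0.45, 0.23, 0.11, 0.28, 0.056, 0.10, 0.11, 0.30, 0.28 and 0.24. Psmg1 was at 0.0052 under upper-quartile scaling. Psmg2 turned to -0.15 with voom, -0.17 without wild-type wells 2 and 5, and, also without those wells, -0.26 with log2(TPM + 1) and -0.19 with DESeq2 size factors. Psmg4 was at -0.0083 with log2(TPM + 1) without them, while with 1 library left out Psmb1 ranged from -0.18 to 0.0012 and Psmg2 from -0.087 to 0.21.

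The difference in the immunoproteasome share: Psmb8 to Psmb5 (ChR2 minus wild type, -0.05 percentage points) ranged from -0.165 to 0.026 with 1 library left out, and was positive without wild-type replicate 5. Depth limits Psmb8, Psmb9 and Psmb11, and wild-type well 2, where 1 count is worth the most CPM.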
